A study of Mus musculus with 95 samples.

Results

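The 10 genes described here encode proteins of the fast-twitch skeletal muscle fibre and were measured in white adipose tissue (WAT), a tissue that is not made of muscle. They were found by symbol among the 55401 rows of the count table, and each of the 10 symbols stood on 1 row. Acta1, Myh1, Myh2, Myh4 and Mylpf encode the actin, the myosin heavy chains and a myosin light chain of the contractile filaments. Tnnt3, Tnni2 and Tnnc2 encode the fast troponins, Ckm encodes muscle creatine kinase, and Atp2a1 encodes the fast calcium pump of the sarcoplasmic reticulum. Their level in each white fat library is given here as a rough measure of muscle RNA in that library. Cortex, kidney and liver of the same study are given for contrast. In most white fat libraries the sum of the 10 genes is mainly Acta1, so the sum without Acta1 is also given below.

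The study measured polyadenylated RNA of C57BL/6J mice in 3 groups. The TLS group, marked "Stim" in the labels and read as TLS from the series title, was collected after 3 months of a torpor-like state at an age of 205 days. The control group (Con) was collected at the same age and the time-0 group (T0) was 83 days younger. White fat was represented by 8 TLS, 7 control and 8 T0 libraries, each from a separate animal, so that p-values measure the spread between animals. The labels name no genotype beyond the strain, and how TLS was induced, which fat depot was taken and what the control group received are not stated in the labels. Animals were labelled F (4 TLS, 4 Con, 4 T0) or M (4 TLS, 3 Con, 4 T0). All mice of all groups were perfused with phosphate-buffered saline before dissection. White fat libraries held 15881766 to 29089492 counts. A level is given below as CPM, the counts divided by the library's total and scaled to 1000000, and a count of 3, taken as the floor, corresponds to 0.103 to 0.189 CPM.

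In a skeletal muscle fibre, myosin heavy chains pull on actin filaments, and the troponin complex lets them do so only when calcium is released from the sarcoplasmic reticulum. Adult fibres are told apart by their myosin heavy chain: Myh7 marks slow fibres, Myh2 and Myh1 mark fast oxidative and intermediate fibres, and Myh4 marks the fastest, glycolytic fibres. White adipocytes carry none of this machinery, while blood vessels in fat carry smooth muscle, which uses other actin and myosin genes such as Acta2 and Myh11.

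The labels were checked first. The summed level of 13 white adipocyte genes, among them Adipoq, Plin1 and Lep, was 19052 to 52948 CPM over the 23 white fat libraries, so that the markers of the labelled tissue were present in each of them. Fast fibre genes that are not among the 10 had sums above all other libraries in the 2 libraries where the 10 were highest, as given further on, while Myh6, the main heart myosin, was at 0 counts in the 4 libraries with the highest sums. No library went against its F or M label. The F and M labels of 2 T0 animals differed between tissues. White fat libraries also differed in genes of other neighbouring tissues: the sum of 8 male tract genes reached 6869 CPM in T0 animal T0_6 and 272 CPM in TLS animal 47BE, against a median of 0.0507 CPM, and the sum of 6 skin genes reached 89.8 CPM in control animal 983B. Of the 23 libraries, those of the TLS animals B51B and B4B9, both labelled F, stood apart from all others in the muscle genes, so the results that rest on them are given with and without them.

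The sum of the 10 genes was 6460 CPM in B51B, or 0.646% of all its counts, and 1191 CPM in B4B9, or 0.119%. Next came control animal A123 at 262 CPM and TLS animal B23B at 238 CPM, both also labelled F. The other 19 libraries held 16.2 CPM (A5DA, TLS) to 125.2 CPM (B03E, TLS). Of the 165432 counts of the 10 genes in white fat, B51B held 62.02% and B51B with B4B9 held 76.5%. In bulk tissue a smaller number of muscle fibres and less muscle RNA per fibre cannot be told apart.

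**Figure D1:**
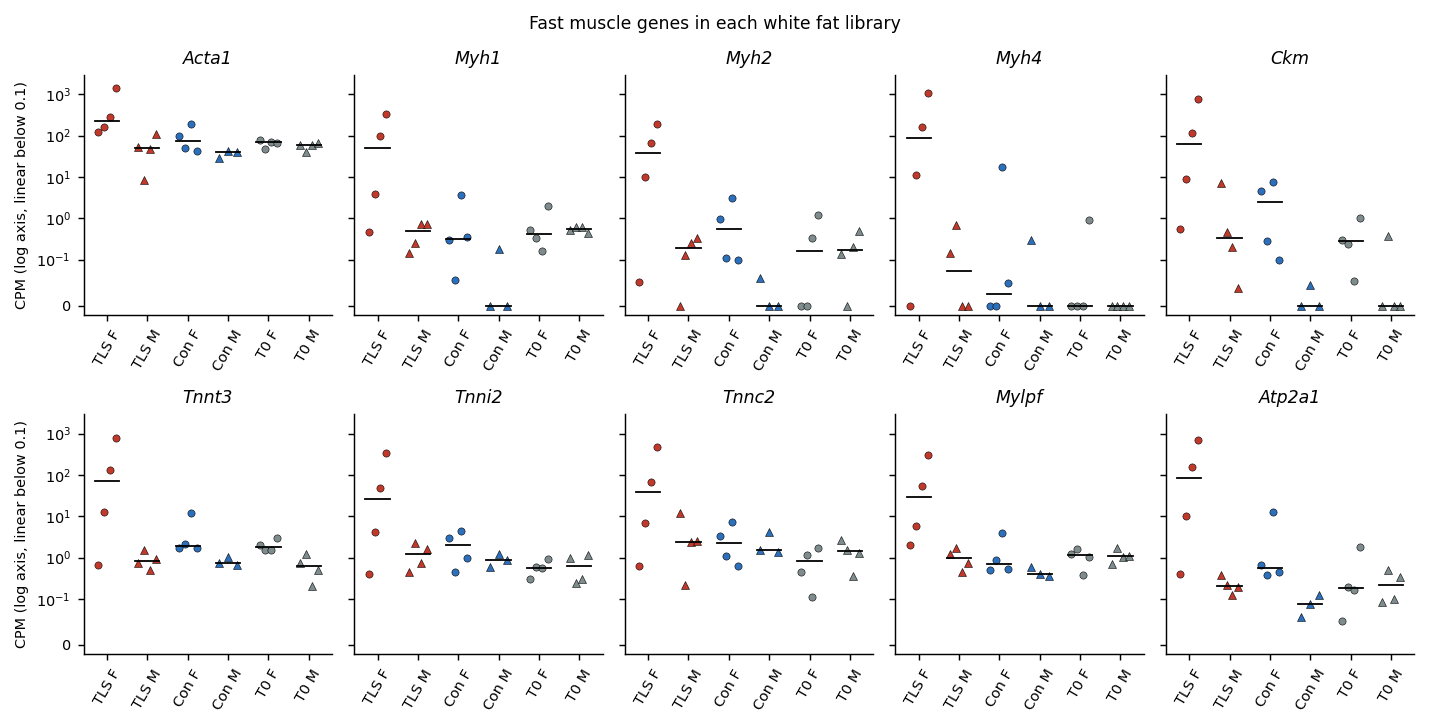
Level of each of the 10 genes in each white fat library in CPM (log axis, linear below 0.1), by group and F or M label, with circles for F, triangles for M and a bar at each median. The 2 highest points of every panel are B51B and B4B9 in the TLS F column, up to 1451 CPM for Acta1 and 1091 CPM for Myh4.

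Acta1 encodes skeletal muscle alpha-actin, the actin of the thin filament (chr8:123891769-123894751 on the minus strand, GRCm38). In TLS white fat Acta1 ranged from 8.65 CPM (A5DA) over a median of 113.3 CPM to 1451 CPM (B51B). Control libraries ranged from 28.4 over 43.5 to 190 CPM, and T0 libraries from 40.6 over 63.5 to 79.6 CPM. Acta1 was the only one of the 10 genes with more than 5 CPM in every white fat library, and the 3 groups overlapped. Its share of the counts of the 10 genes was 22.5% in B51B and 23.6% in B4B9, against 53.5% in A5DA, 68.98% in B23B, 70.4% in 47BE, 72.5% in A123 and 83.3 to 95.9% in the other 17. Most white fat libraries thus carried Acta1 with little of the other 9 genes.

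Myh4 encodes the myosin heavy chain of the fastest fibres (chr11:67238029-67260446, plus strand). It was at 0 counts in 14 of the 23 white fat libraries. In the 8 TLS libraries it ranged from 0 over a median of 0.419 CPM to 1091 CPM, with 166 CPM in B4B9 and 11.1 CPM in B23B as the next values. Among controls only A123 exceeded 1 CPM, at 17.4 CPM, and the median was 0. In T0 white fat 7 of 8 libraries were at 0 and T0_4 held 0.916 CPM, from 21 counts. Its groups overlapped at 0.

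Myh1 and Myh2 encode the heavy chains of intermediate and fast oxidative fibres and lie beside Myh4 on chromosome 11 (Myh1 at chr11:67200052-67224575, Myh2 at chr11:67171027-67197517, both plus strand). In TLS libraries Myh1 ranged from 0.149 over 0.736 to 338 CPM, with B4B9 at 98.2 CPM. Controls ranged from 0 over 0.178 to 3.63 CPM and T0 libraries from 0.164 over 0.515 to 1.96 CPM. B51B and B4B9 lay far above the highest control for Myh1, and B23B, at 3.78 CPM, lay next to that control, A123. Myh2 ranged from 0 over 0.296 to 194 CPM in TLS, with 66.4 CPM in B4B9 and 10.0 CPM in B23B. Its highest control was A123 at 3.02 CPM and its highest T0 library was T0_4 at 1.18 CPM. Both genes were highest in the same 4 libraries, and all 3 groups overlapped in their lower values.

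The upstream sequences of Myh4, Myh1 and Acta1 are shown because these 3 genes differ most in how they were spread over the libraries: Myh4 was at 0 in most of them, Myh1 recurred in kidney and cortex, and Acta1 was in every white fat library. Each window is the 250 bases before the start of the RefSeq transcript on GRCm38.p6, 5' to 3' on the gene's strand: chr11:67237562-67237811 for Myh4, chr11:67199852-67200101 for Myh1 and chr8:123894776-123895025 for Acta1. Capitals mark matches to an E-box (CANNTG, either strand), a MEF2 element or a CArG box (either strand, by name) and TATAAA (the gene's strand).
Myh4: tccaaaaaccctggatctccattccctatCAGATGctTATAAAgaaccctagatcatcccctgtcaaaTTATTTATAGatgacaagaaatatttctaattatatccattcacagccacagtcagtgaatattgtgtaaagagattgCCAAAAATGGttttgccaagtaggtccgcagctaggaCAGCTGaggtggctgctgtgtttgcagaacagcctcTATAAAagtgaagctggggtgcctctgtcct
Myh1: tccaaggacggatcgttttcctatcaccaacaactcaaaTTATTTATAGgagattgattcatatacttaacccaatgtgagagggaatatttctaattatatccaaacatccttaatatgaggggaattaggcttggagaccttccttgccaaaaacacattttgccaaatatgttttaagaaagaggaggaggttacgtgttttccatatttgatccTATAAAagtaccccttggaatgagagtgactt
Acta1: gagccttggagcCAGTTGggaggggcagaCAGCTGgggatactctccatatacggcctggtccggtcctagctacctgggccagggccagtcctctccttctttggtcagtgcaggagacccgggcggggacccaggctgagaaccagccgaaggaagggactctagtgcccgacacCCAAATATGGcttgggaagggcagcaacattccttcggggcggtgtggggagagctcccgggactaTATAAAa
The Myh4 window held 2 E-boxes, 1 MEF2 element, 1 CArG box and 2 TATAAA matches. The Myh1 window held 1 MEF2 element and 1 TATAAA, and the Acta1 window 2 E-boxes, 1 CArG box and 1 TATAAA. Over the 8 of 10 genes with a window, 6 held an E-box, 2 a MEF2 element, 2 a CArG box and 3 TATAAA. Among all 27025 promoters in the same table, 66.04% held an E-box, 1.73% a MEF2 element, 1.40% a CArG box and 8.12% TATAAA. A match is a description of the letters and not of binding. Tnnt3 and Tnni2 are named without a window.

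Mylpf encodes the fast skeletal myosin regulatory light chain (chr7:127208890-127214298, plus strand). In TLS libraries it ranged from 0.456 over 1.88 to 305 CPM, with B4B9 at 53.2 CPM and B23B at 5.74 CPM. Controls ranged from 0.368 over 0.542 to 3.999 CPM (A123), and T0 libraries from 0.383 over 1.09 to 1.68 CPM. Mylpf was detected in all 23 white fat libraries, and B51B, B4B9 and B23B were the only TLS libraries above the highest control.

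The 3 fast troponins hold the calcium switch of the thin filament. Tnnt3, the subunit that binds tropomyosin (chr7:142498836-142516009, plus strand), ranged in TLS from 0.498 over 1.21 to 800 CPM, with B4B9 at 131.9 CPM and B23B at 13.0 CPM. Its controls ranged from 0.674 over 1.72 to 11.997 CPM and its T0 libraries from 0.202 over 1.38 to 3.01 CPM. For Tnnt3 the TLS median lay below the control median although the TLS maximum was the highest value.
Tnni2, the inhibitory subunit (chr7:142441808-142444410, plus strand), ranged in TLS from 0.407 over 1.98 to 335 CPM, with B4B9 at 48.2 CPM. Its controls ranged from 0.445 over 0.986 to 4.32 CPM and its T0 libraries from 0.250 over 0.567 to 1.18 CPM. B23B, at 4.06 CPM, lay below control animal A123 in this gene, so that only B51B and B4B9 lay above all controls.
Tnnc2, the calcium-binding subunit (chr2:164777161-164779967, minus strand), ranged in TLS from 0.215 over 4.66 to 477 CPM, with B4B9 at 68.7 CPM and 47BE at 11.7 CPM. Its controls ranged from 0.641 over 1.56 to 7.21 CPM and its T0 libraries from 0.109 over 1.23 to 2.63 CPM. The next library in Tnnc2 was 47BE, labelled M, and not B23B or A123.

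Ckm encodes the creatine kinase that buffers ATP in muscle (chr7:19404776-19422841, plus strand). In TLS libraries Ckm ranged from 0.0381 over 3.95 to 763 CPM, with B4B9 at 117.4 CPM, B23B at 9.01 CPM and 47BE at 7.34 CPM. Controls ranged from 0 over 0.0986 to 7.67 CPM (A123), with 983B at 4.56 CPM. T0 libraries ranged from 0 over 0.150 to 1.00 CPM. Ckm lay between 4 and 10 CPM in the 4 libraries B23B, 47BE, A123 and 983B, and its groups overlapped.
Atp2a1, the pump that returns calcium to the sarcoplasmic reticulum (chr7:126445858-126463108, minus strand), ranged in TLS from 0.124 over 0.390 to 706 CPM, with B4B9 at 159 CPM and B23B at 10.3 CPM. Its controls ranged from 0.0601 over 0.390 to 12.8 CPM and its T0 libraries from 0.0513 over 0.180 to 1.79 CPM. The TLS and control medians of Atp2a1 were alike to 3 digits while the highest values were 706 and 12.8 CPM.

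Summed without Acta1, the other 9 genes gave 5009 CPM in B51B, 909 CPM in B4B9, 73.8 CPM in B23B, 72.1 CPM in A123, 22.1 CPM in 47BE, 15.1 CPM in 983B and 13.6 CPM in T0_4. The remaining 16 libraries held 2.78 to 7.53 CPM. Ranked this way the first 4 libraries were all labelled F, 3 of them TLS and 1 control, and the highest T0 library was also labelled F. The TLS library B03E, labelled F, held 5.19 CPM of these 9 genes although its Acta1 was 120.0 CPM. The ratio of B51B to B4B9 was 2.93 for Myh2 at the lowest and 6.95 for Tnni2 at the highest, with a median of 5.89 over the 10 genes. The ratio of B51B to the highest library other than these 2 ran from 7.64 for Acta1 to 89.3 for Myh1. The genes thus did not scale by 1 factor between libraries, and Acta1 departed from the other 9.

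**Figure D2:**
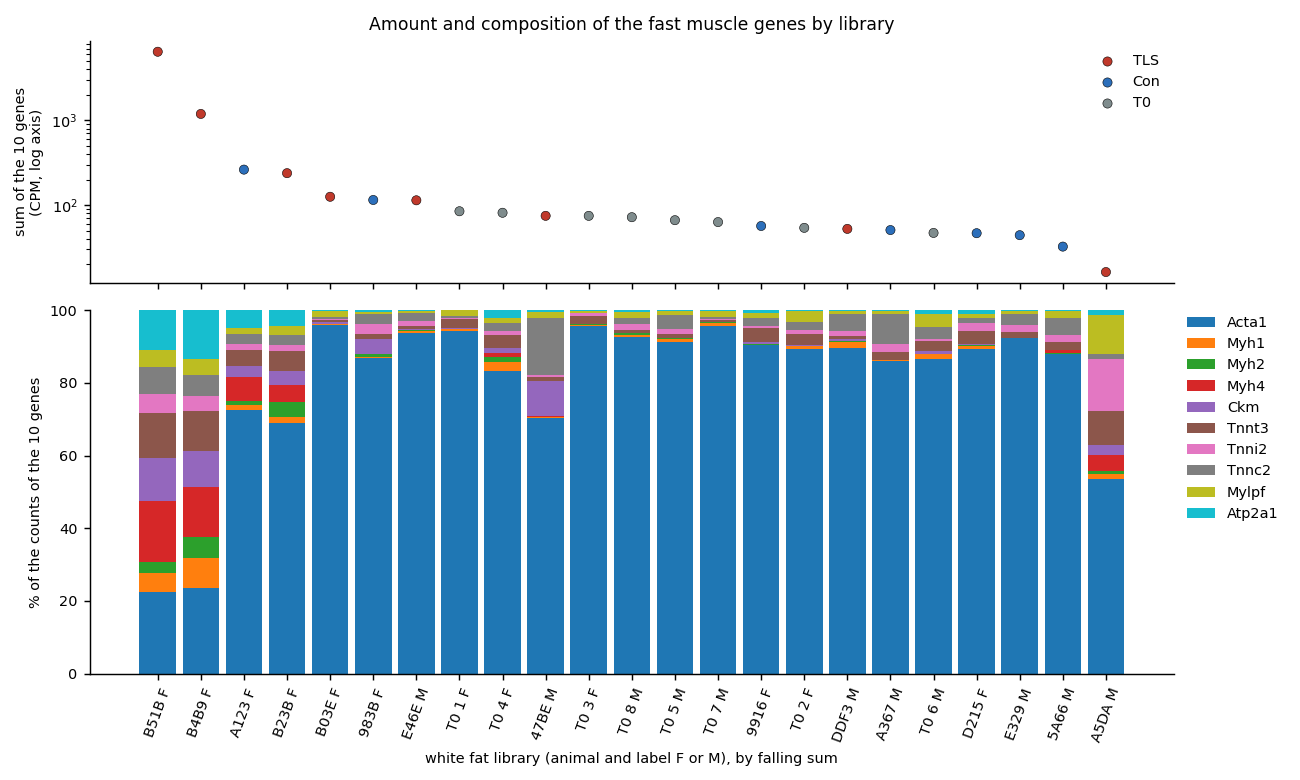
Upper panel, sum of the 10 genes in CPM (log axis) in each white fat library, ordered by falling sum and coloured by group; lower panel, share of each gene in the counts of the 10 genes in per cent. Acta1 fills 22.5% of the bar in B51B and 23.6% in B4B9, and 53.5 to 95.9% in the other 21.

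Compared per kilobase of exon, so that long and short genes can be set side by side, the level in B51B was 945 CPM per kb for Acta1, 597 for Tnnc2, 505 for Tnnt3, 287 for Mylpf, 262 for Ckm, 224 for Tnni2, 203 for Atp2a1, 181 for Myh4, 53.2 for Myh1 and 27.2 for Myh2. Acta1, Tnnc2, Tnnt3 and Mylpf were the first 4 genes in each of B51B, B4B9, B23B and A123, and Myh1 and Myh2 were the last pair in each. In A123 and B23B the step from Acta1 to Tnnc2 was larger: 123.7 against 9.01 CPM per kb in A123, and 106.8 against 8.51 CPM per kb in B23B.

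The mix of myosin heavy chains differed between the libraries that held enough counts of them. Myh4 made up 67.2% (exact binomial 95% interval 66.6 to 67.8%) of the Myh1, Myh2 and Myh4 counts in B51B, 50.2% (49.0 to 51.4%) in B4B9, 44.5% (40.9 to 48.2%) in B23B and 72.3% (68.3 to 76.2%) in A123. Myh2, the oxidative form, made up 11.98% in B51B, 20.1% in B4B9, 40.2% (36.7 to 43.9%) in B23B and 12.6% (9.84 to 15.7%) in A123. The intervals of B23B and A123 did not overlap although both libraries held similar sums. In T0_4, from 93 myosin counts, the shares were 22.6% Myh4 (14.6 to 32.4%), 48.4% Myh1 and 29.03% Myh2. The slow myosin Myh7 added 1336 counts in B51B, or 4.93% of the 4 myosins together, 63 counts or 0.940% in B4B9, 9 counts or 1.23% in B23B, 42 counts or 7.51% in A123 and 0 counts in T0_4, which allows up to 3.89%. These intervals cover counting error only, and each describes 1 library. Parts of these 3 genes are near-identical: 25.4% of the 50-base windows of Myh1, 22.9% of Myh2 and 18.9% of Myh4 also occur in other genes, mostly in each other and in Myh8. The sources used here do not say how such reads were counted, so the split between the 3 genes is uncertain to that extent. Acta1 shares 2.02% of its windows and Atp2a1 0.115%, and the other 5 members share none.

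Whether TLS changed these genes in white fat was tested with edgeR's quasi-likelihood test over all genes, with Benjamini-Hochberg adjustment. Of the 10 genes, 9 passed the filter on low counts, and Myh4 did not. In TLS against control, 0 of 9 passed an adjusted p of 0.05, where 0.00596% of all 16784 genes tested did. All 9 had an unadjusted p under 0.05. The share of all genes under that unadjusted threshold is not given here or below, so such counts cannot be set against it. The 9 genes were also read in the same libraries and are not separate cases. The fitted log2 fold changes ran from 1.74 ± 0.632 (SE) for Acta1 to 6.17 ± 1.43 for Ckm, with a median of 4.79 against 0.04 over all genes, and their edgeR adjusted p-values ran from 0.169 to 0.318. Over the alternative settings these adjusted p-values ran from 0.00149 (Mylpf, DESeq2) to 0.983 (Tnni2, without B51B and B4B9). DESeq2 called 8 of the 9 higher in TLS, all but Acta1, against 0.679% of all genes called higher by DESeq2, and limma's voom fit with quality weights called 0, with 3 at an unadjusted p under 0.05. edgeR and voom thus called none of the 9 and DESeq2 called 8.

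Without the libraries of B51B and B4B9 the median log2 fold change of the tested genes fell from 4.79 to 0.40, with 7 genes tested, 0 called by edgeR and 0 at an unadjusted p under 0.05. Ckm was then 2.41 ± 1.36, Myh1 1.15 ± 0.867, Mylpf 1.01 ± 0.532, Tnnc2 0.40 ± 0.761, Acta1 0.37 ± 0.419, Tnnt3 0.22 ± 0.578 and Tnni2 0.06 ± 0.578. Myh2 and Atp2a1 no longer passed the filter on low counts. Without B51B alone the median was 2.24. Leaving out B23B and A123 as well gave a median of 0.40 over 6 genes. Myh1 was then 1.87 ± 0.770 and Mylpf 1.13 ± 0.408 (edgeR unadjusted p 0.0255 and 0.0125), while Tnni2 and Tnnt3 were below 0. Among F libraries alone the median was 6.07 over 10 genes, and among M libraries alone it was 0.51 over 6, with 0 called by edgeR in either. In M alone Myh1 was 2.60 ± 0.999 (edgeR unadjusted p 0.0249), and the other genes tested there had an unadjusted p above 0.05. Much of the size of the TLS difference in these genes thus came from 2 animals, both labelled F. They were picked as the highest libraries in these genes, so a smaller difference without them follows from that choice.

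**Figure D3:**
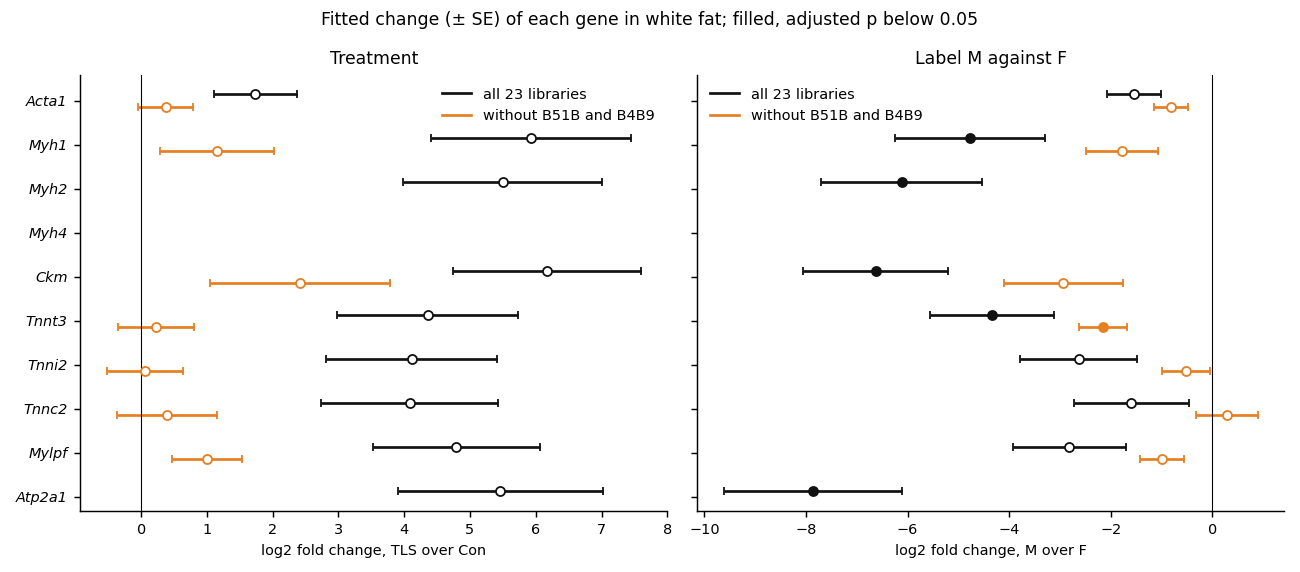
Fitted log2 fold change with its standard error for each gene in white fat, TLS over control (left) and M over F (right), over all 23 libraries (black) and without B51B and B4B9 (orange), with filled points where the edgeR adjusted p is below 0.05. Genes without a point did not pass the low-count filter in that fit. On the left no point is filled and the orange points lie between 0.06 and 2.41.

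The comparison of TLS with T0 shares the TLS libraries with the one above. Of 9 genes, edgeR called only Ckm (log2 8.63 ± 1.70, edgeR adjusted p 0.0359, from 0.00114 to 0.167 over the alternatives), where 0.226% of all genes were called. All 9 had an unadjusted p under 0.05, and the median log2 fold change was 5.04. Without B51B and B4B9 edgeR called 0 of 7, with 3 at an unadjusted p under 0.05, and the median was 0.97. DESeq2 called 7 and voom 0 over all libraries, without a share of all genes to set these counts against. Control against T0, a comparison without TLS, gave 0 of 9 called by edgeR and 0 at an unadjusted p under 0.05. DESeq2 and voom also called 0, where 0.161% of all genes were called by edgeR. The groups differ in age and in whatever the controls received, which cannot be told apart here. The median log2 difference of control against T0 was 0.68, and the standard errors of single genes were 0.606 (Acta1) to 2.32 (Myh2).

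All 5 libraries with more than 50 myosin counts came from animals labelled F, and the fit gave an F to M difference as well. Of the 9 genes, 5 were lower in M, where 6.9% of all genes were called lower in M. These were Atp2a1 (-7.87 ± 1.75, edgeR adjusted p 0.00385), Ckm (-6.63 ± 1.43, 0.00296), Myh2 (-6.12 ± 1.58, 0.0121), Myh1 (-4.78 ± 1.48, 0.0366) and Tnnt3 (-4.33 ± 1.22, 0.0210), all on the log2 scale. Atp2a1, Ckm and Myh2 did not pass the low-count filter among M libraries alone, where their medians were 3, 1 and 3 counts. They entered the test through their F libraries, so a lower level in M was largely built in. Their calls beside the share of all genes are therefore no support for a difference. Over the alternatives the adjusted p of these 5 genes lay between 5.58e-06 (Atp2a1, DESeq2) and 0.650 (Myh1). Without B51B and B4B9, 1 of 7 was called, Tnnt3 at -2.16 ± 0.473 (edgeR adjusted p 0.00437). Without B23B and A123 as well, 0 of 6 were called. For Tnnt3 the F libraries of the 3 groups other than these 4 lay between 0.662 and 3.01 CPM and the M libraries between 0.202 and 1.51 CPM, so the labels overlapped. DESeq2 called 7 of 9 lower in M and voom called 0 of 9, with 5 at an unadjusted p under 0.05. The share of all genes called is given for edgeR over all libraries only, so the other counts here have none beside them.

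Whether the TLS effect itself differed between M and F was tested by the interaction. edgeR called 0 of 9 genes, where 0% of all genes were called, with 5 of 9 at an unadjusted p under 0.05. DESeq2 called 2 and voom 0, with none of the 9 at an unadjusted p under 0.05 in voom. No share of all genes called is given for DESeq2 or voom here. The median M minus F difference of the TLS effect was -4.98 on the log2 scale over 9 genes, and 0.31 over 7 genes without B51B and B4B9.

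Other muscle genes were read in the same libraries, leaving out the 10. Each list is given as its summed level. The 7 fast fibre genes that are no members (Actn3, Myl1, Mybpc2, Myoz1, Mylk2, Pvalb and Casq1) summed to 1139 CPM in B51B, 238 CPM in B4B9 and 33.4 to 83.3 CPM in the other 21 libraries. Pvalb, the calcium buffer of the fastest fibres, had 3855 counts in B51B, 625 in B4B9, 71 in B23B and 60 in A123. Actn3, the fast fibre actinin of the Z-disc, had 3319 counts in B51B, 866 in B4B9 and 198 in B23B.
The 19 genes of the shared sarcomere summed to 1317 CPM in B51B and 400 CPM in B4B9, against 53.5 to 329.01 CPM in the others. Among them Ttn, the elastic filament titin, had 3473 counts in B51B, 742 in B4B9, 83 in B23B and 82 in A123, and Tcap, its Z-disc cap, had 1881, 405, 43 and 46 counts. Both genes were highest in B51B and next in B4B9. B23B and A123 had similar counts but unlike library totals, 29089492 in B23B and 21504573 in A123.
Slow fibre genes, with Myh7, Tnnt1 and Tnnc1, summed to 450 CPM in B51B and 222 CPM in B4B9, where the other 21 libraries held 109.4 to 239 CPM, so B4B9 lay inside that range. The list also holds Atp2a2 and Casq2, whose Pearson r with the mean log2 CPM of the 10 genes was 0.0615 and 0.0841, against 0.811 for Tnnt1. The sum alone thus does not show whether B4B9 held more slow fibre RNA than the others. Calcium handling genes such as Ryr1, the release channel, summed to 352 CPM in B51B and 111.5 CPM in B4B9 against 19.5 to 111.7 CPM. Muscle energy genes such as Pygm, the muscle glycogen phosphorylase, summed to 1021 and 323 CPM against 83.1 to 191 CPM. B51B stood above all other libraries in each of these lists, and B4B9 in the fast fibre, sarcomere and energy lists.

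Regulators of the muscle lineage were detected at few counts. Myf6, a factor of mature fibres, had 54 counts in B51B and 15 in B4B9, Myod1 had 14 and 8, Myog 10 and 7, and Pax7, the marker of satellite cells, 1 and 1. The 6 regulators summed to 5.10 CPM in B51B, 1.59 CPM in B4B9 and at most 0.205 CPM in the other 21 libraries. The 7 genes of the nerve-muscle junction summed to 8.82 CPM in B51B and 7.02 CPM in B4B9, inside the 4.95 to 12.8 CPM of the others.
The summed levels of genes of other cells did not follow the muscle genes in these 2 libraries. Smooth muscle genes summed to 823 CPM in B51B and 994 CPM in B4B9 against 294 to 2967 CPM in the others, white adipocyte genes to 47499 and 51506 CPM against 19052 to 52948 CPM, and brown and beige fat genes to 852 and 793 CPM against 323 to 1455 CPM. Heart muscle genes summed to 2.90 and 2.89 CPM, where all 23 libraries ran from 1.35 to 31.8 CPM. Ucp1, the marker of thermogenic fat, was at 0 CPM in B51B, 2.34 CPM in B4B9, 3.88 CPM in B23B and 0.0465 CPM in A123. The part of the muscle genes in any other white fat result was not tested beyond the count given at the end of this section.

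**Figure D4:**
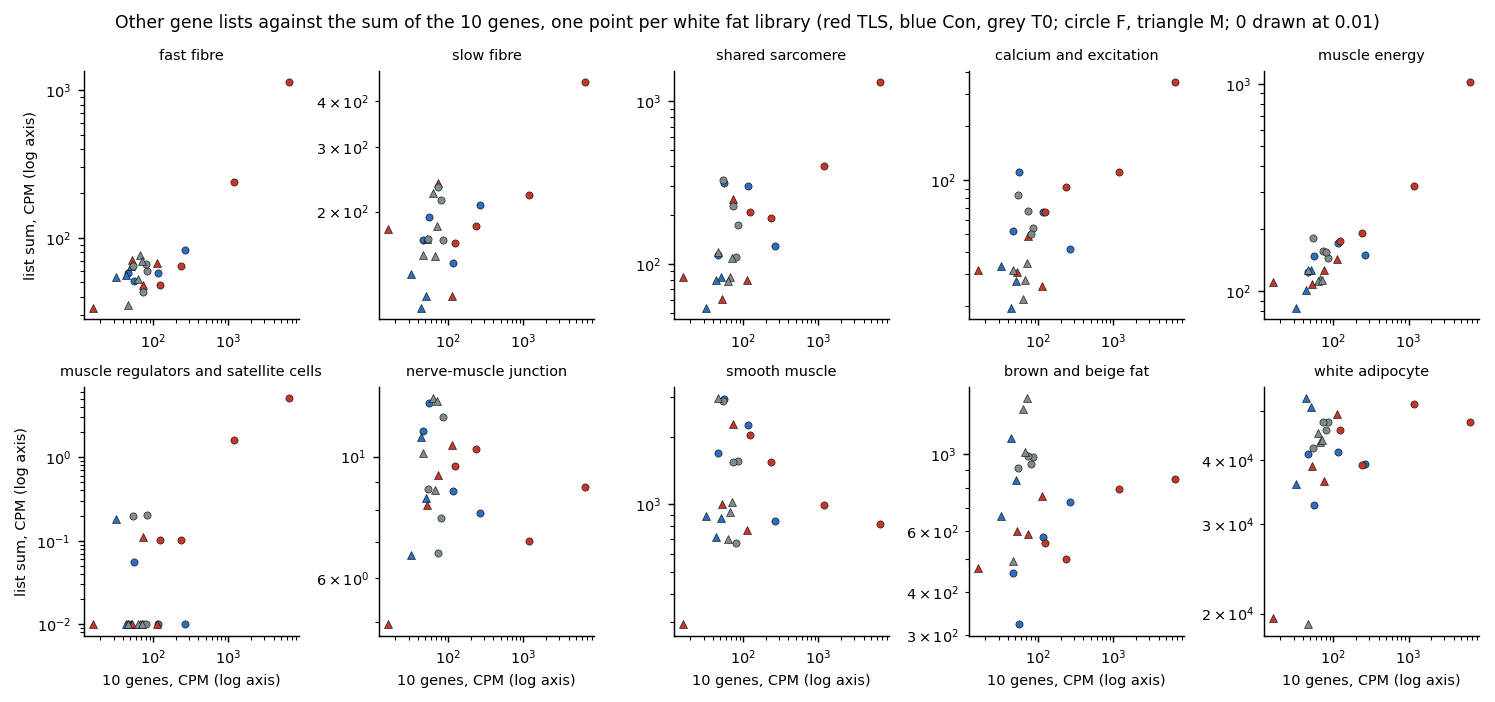
Summed level of each other gene list, without the 10 genes, against the sum of the 10 genes in each white fat library, both in CPM on log axes, with red for TLS, blue for control, grey for T0, circles for F and triangles for M. Sums of 0 are drawn at 0.01. B51B and B4B9 lie at the right, and they are the highest libraries for fast fibre, shared sarcomere, energy and regulator genes and lie within the others for smooth muscle, adipocyte, brown fat and junction genes.

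In the edgeR test of TLS against control, 0 genes of any of these lists were called. Of the fast fibre list 12 of 15 genes were tested, members included, with 11 at an unadjusted p under 0.05 and a median log2 fold change of 4.10, which was 0.49 over 10 genes without B51B and B4B9. The median was 2.80 over 9 shared sarcomere genes (0.51 over 7 without the pair of libraries), 1.31 over 5 slow fibre genes (0.15 over 5), 1.14 over 10 energy genes (0.15 over 10) and 0.91 over 10 calcium genes (0.09 over 10). Smooth muscle genes had a median of 0.08 over 11, white adipocyte genes -0.09 over 13 and brown and beige fat genes -0.10 over 7. Among muscle genes outside the 10, the lowest p was that of Mybpc1, a myosin-binding protein of slow fibres, at 4.19 ± 0.898 (edgeR adjusted p 0.159), and 2.46 ± 0.859 (edgeR adjusted p 0.383) without B51B and B4B9. In M against F, where 6.9% of all genes were called lower in M, edgeR called Mybpc1 of 5 slow fibre genes tested, 3 of 9 sarcomere genes (Myom1, Tpm2, Ttn), 3 of 10 calcium genes (Jph2, Srl, Trdn) and 3 of 10 energy genes (Ak1, Cox8b, Pygm) lower in M. Without B51B and B4B9 it called Mybpc1, Myom1, Tpm2, Trdn, Ak1, Cox8b and Pygm lower in M, and not Ttn, Jph2 or Srl. Over all libraries it also called 3 of 11 smooth muscle genes (Des, Smtn, Tagln) and the nerve genes Mbp and Sox10 lower in M, each of them also without the 2 libraries, and their part in the result for the 10 genes was not tested.

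Some libraries held part of the muscle set. TLS animal 47BE, labelled M, had 314 counts of Tnnc2 and 197 of Ckm, with 4 counts of Myh4, 0 of Myh2 and 7 of Ttn. Actn3 had 409 counts in that library and Neb, the nebulin of the thin filament, had 181. Control animal 983B had 90 counts of Ckm, 65 of Tnnc2 and 60 of Tnni2 with 0 of Myh4. In 983B Myh2 had 19 counts and Myh1 had 6. Myh4 was thus near or at 0 in both libraries, and Myh2 was at 0 in 47BE but not in 983B. The male tract genes of 47BE (272 CPM) and the skin genes of 983B (89.8 CPM) were given above, and their part in these values was not tested.

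The genes most like the 10 over the 23 libraries were ranked by their correlation with the mean log2 CPM of the 10, which the 2 high libraries dominate. The highest were Tcap (Pearson r 0.942), Ttn (0.938) and Hrc (0.913), the only 3 of 16775 other genes at 0.9 or above. Among those that followed, down to 0.863, were Nrap, Ryr1, Aldh4a1, Tmem38a, Mb, Glul, Pvalb and Mybpc2, and 31 genes reached 0.8. Without B51B and B4B9, r was 0.729 for Tcap, 0.751 for Ttn and 0.5681 for Hrc over 21 libraries. After centring within group and F or M label, Tcap (0.933), Ttn (0.918) and Actn3 (0.883) were highest, followed by Hrc, Nrap, Pdk1, Mc5r, Rbfox1, Gm9905, Kcmf1, Rhbdd2 and Sfxn1. Among the 10 themselves, pairs correlated from 0.725 (Acta1 and Myh4) to 0.958 (Myh4 and Atp2a1) over 23 libraries and from 0.243 to 0.856 over 21. The genes of each pair were read in the same libraries, which differ in depth, and these correlations carry no test.

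In the other tissues the sum of the 10 genes was mostly lower. Cortex libraries held a sum of 10.1 to 19.8 CPM, kidney 1.26 to 17.7 CPM and liver 0.263 to 2.98 CPM, over 24 libraries each. Acta1 was at 6.29 to 14.4 CPM in every cortex library, at 0 to 0.487 CPM in kidney and at 0 to 0.188 CPM in liver, against 8.65 to 1451 CPM in white fat, so that white fat was highest and cortex next, with the lowest white fat library inside the cortex range and kidney and liver overlapping at 0. Myh2 was at 0.566 to 2.69 CPM and Myh4 at 0.102 to 1.18 CPM in cortex, where all 24 libraries had counts of both. The cortex medians of Myh1 (1.08 CPM), Myh2 (1.76 CPM) and Myh4 (0.573 CPM) lay above those of white fat (0.458, 0.141 and 0 CPM). In liver Myh2 was at 0 in all 24 libraries.
Mylpf was the gene most alike between tissues, with medians of 1.05 CPM in white fat, 0.870 CPM in cortex, 1.92 CPM in kidney and 1.31 CPM in liver, and it was detected in all 95 libraries. Ckm, Tnnc2 and Tnnt3 had medians of 0 to 0.1086 CPM in cortex, kidney and liver. Atp2a1 reached 3.22 CPM in cortex and Tnni2 1.29 CPM in kidney.

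Kidney differed from the other tissues in Myh1. It was at 3.87 to 14.6 CPM in the 12 kidney libraries labelled F and at 0 to 3 counts in the 12 labelled M (log2 M over F -7.03 ± 0.356, edgeR adjusted p 2.79e-14, from 4.86e-46 to 2.88e-09 over the alternatives). The 2 labels did not overlap, in a comparison where 22.2% of all genes were called lower in M. Of the other 9 genes only Mylpf passed the filter in kidney. In the F kidneys Myh1 was 5.47 ± 1.93 CPM (SD, n = 4) in TLS, 11.9 ± 3.05 CPM (n = 4) in control and 8.31 ± 3.32 CPM (n = 4) in T0. A two-sided exact permutation test of the TLS and control F kidneys gave p = 0.0571, or 0.171 adjusted over the 3 pairs of groups, where 4 against 4 cannot go below 0.0286; this split was chosen after the values were seen. The edgeR test over F and M kidneys gave -1.20 ± 0.357 for TLS against control (edgeR adjusted p 0.234, from 0.000753 to 0.967 over the alternatives), and DESeq2 and voom each called it. By the sum of the 10 genes in kidney, the 4 F animals with the highest white fat sums ranked 10 (B51B), 11 (B4B9), 12 (B23B) and 2 (A123) of 24. The 12 kidneys labelled F held sums of 7.73 to 17.7 CPM and those labelled M 1.26 to 5.34 CPM. Ranks 10 to 12 were therefore the lowest among the F kidneys.

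**Figure D5:**
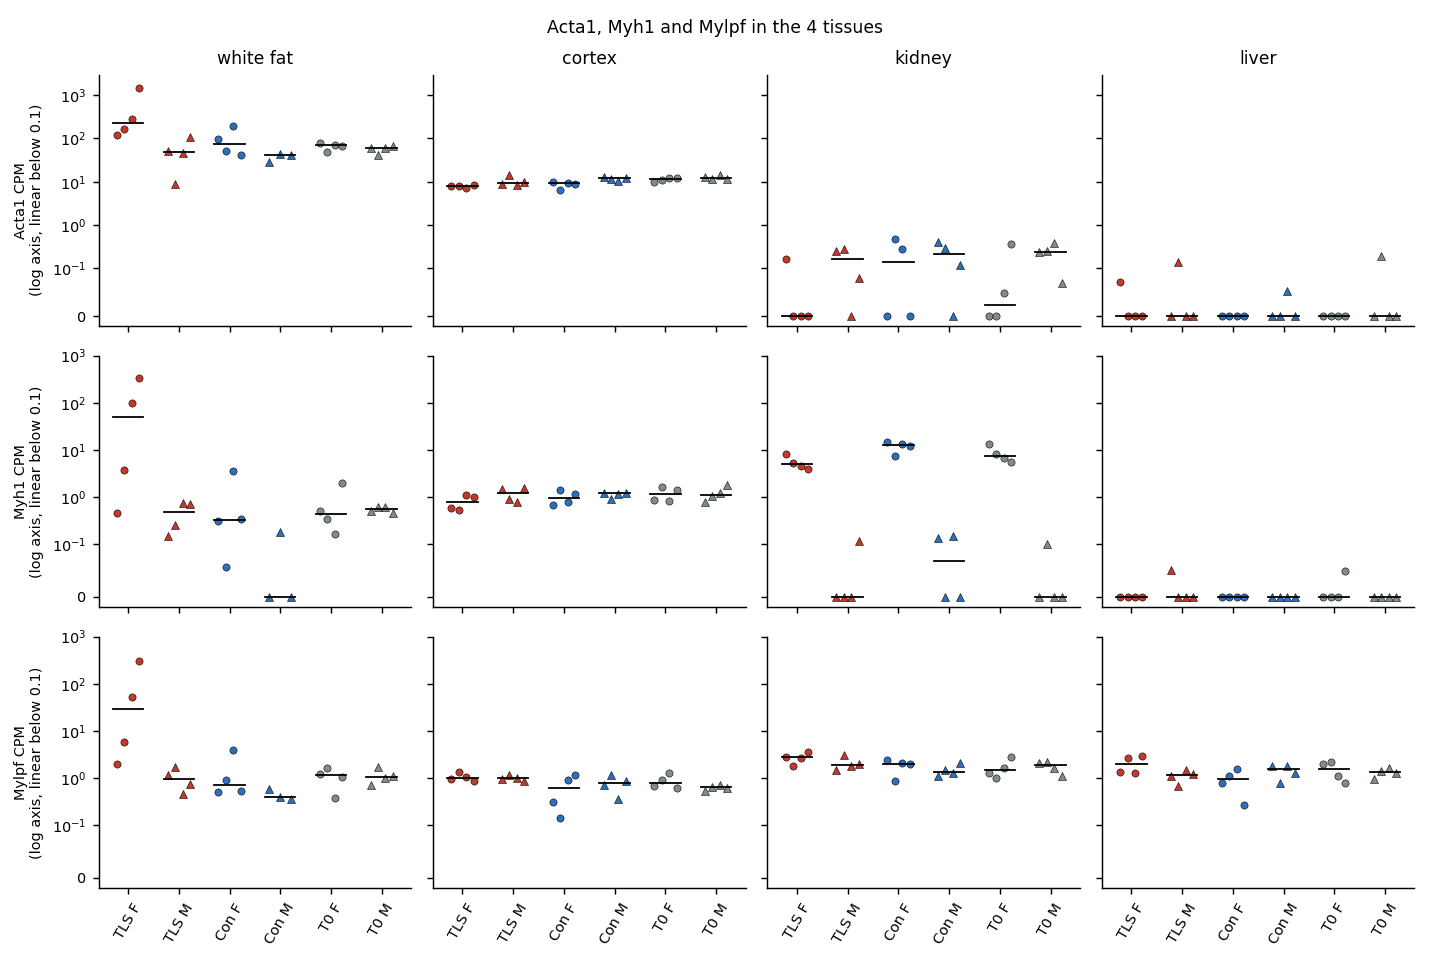
Level of Acta1, Myh1 and Mylpf in CPM (log axis, linear below 0.1) in each library of the 4 tissues, by group and F or M label, with a bar at each median. Acta1 separates white fat and cortex from kidney and liver, Myh1 in kidney is at 3.87 to 14.6 CPM in F and near 0 in M, and the median of Mylpf is 0.870 to 1.92 CPM in the 4 tissues, with B51B at 305 CPM in white fat.

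TLS against control was tested in the other tissues in the same way. In cortex 6 of the 10 genes were tested and edgeR called 0, with 0 at an unadjusted p under 0.05, where 5.41% of all genes were called; DESeq2 and voom called 0. In kidney 2 were tested and edgeR called 0, with 1 at an unadjusted p under 0.05 and 0.231% of all genes called, and DESeq2 and voom called 1 each, Myh1. In liver 1 was tested, Mylpf, and edgeR, DESeq2 and voom called 0, with 0 at an unadjusted p under 0.05, where 1.95% of all genes were called by edgeR. In cortex the fitted TLS difference of Acta1 was -0.16 ± 0.109 on the log2 scale, where control libraries spanned 6.29 to 12.8 CPM and TLS libraries 7.16 to 14.1 CPM.

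In a joint fit of the 4 tissues, 7 of the 10 genes were higher in white fat than in cortex (44.1% of all genes were called higher in white fat), 8 than in kidney (40.5%) and 9 than in liver (46.7%). The genes not called higher were Myh1, Myh2 and Myh4 against cortex, Myh1 and Mylpf against kidney and Mylpf against liver. Without B51B and B4B9 the counts called higher were 6, 8 and 9, and 2, 2 and 1 genes were then called lower in white fat. With the animal as a replicate block the counts called higher were 6, 8 and 9, and 1 gene was called lower than in cortex. The shares of all genes above belong to the fit over all libraries without the block.
The difference of the TLS effect between white fat and the mean of the other 3 tissues was called for 2 genes, where 0.766% of all genes were called: Mylpf at 5.02 ± 0.762 (edgeR adjusted p 2.34e-05, from 1.92e-05 to 0.889 over the alternatives) and Tnni2 at 3.85 ± 1.01 (0.0414, from 0.0378 to 1.00). Atp2a1, Myh1, Myh2 and Myh4 are left out because their fit gave no usable test statistic, and the cause was not tested. With the animal as a replicate block edgeR called 0, with 1 of the 6 fitted genes at an unadjusted p under 0.05. Without the white fat libraries of B51B and B4B9 edgeR called 0, with 0 at an unadjusted p under 0.05. voom called 0, with 5 of 10 at an unadjusted p under 0.05.

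In cortex the sum of the 10 genes in the high animals lay below the median of all 24 libraries. B51B ranked 18 and B4B9 13 of 24 in cortex, and B23B 23 and A123 21. These animals are all labelled F, and the cortex median was 14.7 CPM in F and 17.3 CPM in M. B4B9, at 15.5 CPM, lay above the F median. In liver B23B ranked 1, B51B 2 and B4B9 3 of 24, at 2.98, 2.98 and 2.42 CPM, against a median of 1.64 CPM. Mylpf made up most of each of these liver sums, from 12 counts in B51B, and A123 ranked 12. In kidney A123 ranked 2 of 24, at 16.2 CPM against a median of 6.54 CPM, and B51B, B4B9 and B23B lay at 7.73 to 8.17 CPM. The median of the kidneys labelled F was 9.89 CPM, so that these last animals lay below it.

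Technical values of the high white fat libraries lay within the others or at their edge. B51B had the lowest total of the 23, 15881766 counts, and B23B the highest, 29089492 counts. The share of mitochondrially encoded genes was 3.06% in B51B and 4.32% in B4B9, within the 1.39 to 6.01% of all white fat libraries. The library numbers in the labels were 59 for B51B, 71 for B4B9, and 83 for B23B. White fat numbers ran from 59 to 96 in TLS and were all higher in controls, so the order of library numbers and the TLS group cannot be told apart.

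In white fat edgeR called 1 gene outside the 10 in TLS against control, Serpina3k, a serine protease inhibitor gene, at 2.87 ± 0.453 (edgeR adjusted p 0.0340); it was named after its values were seen. With the mean log2 CPM of the 10 genes as a covariate, 0 other genes were called, and without B51B and B4B9 0 were called. Only 1 call could be lost, and the last fit held fewer TLS libraries. These counts therefore cannot show whether the muscle genes had a part in the Serpina3k call, which was not tested.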

How the data were processed

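The deposited table holds whole-number raw counts per gene and library (95 libraries, 55401 rows), counted with featureCounts per the file headers, from reads aligned with STAR 2.7.10 to mm10 (GRCm38) per the submitters' processing notes, which also name DESeq2 and DESeq. The word "corrected" in the file header is not explained in the sources used here, nor are the strand setting and annotation used for counting. Ages come from the file headers. Per the labels' protocols, poly(A) RNA was made into libraries with a NEBNext Ultra II kit. No count column was left out. White fat of 1 control animal is not analysed here.

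Counts were divided by the library total for CPM. Tests used edgeR 4.0.16 in R 4.3.3 on the counts of each tissue: filterByExpr with a minimum count of 10, TMM scaling, robust quasi-likelihood fits with the 3 groups and the F or M label, and Benjamini-Hochberg adjustment with calls under 0.05. Tissues were compared in 1 joint fit. Shares of all genes called are those of edgeR over all libraries, and of DESeq2 for TLS against control in white fat. Counts of other fits and settings are given without such a share and cannot be set against one. Alternatives were other size factors, other low-count filters, DESeq2 1.42.0, limma 3.58.1 (voom with quality weights), edgeR without robust estimation, fewer groups, no F or M label, F or M alone, each library left out in turn and the animal as a replicate block. Leaving out B51B and B4B9, or these with B23B and A123, was chosen after seeing the data. The fits were tested on simulated data with known changes. The log2 CPM behind correlations used a prior count of 2.

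Libraries of the 4 tissues were paired by the animal code in their labels. The kidney libraries of T0_4 and T0_5 were labelled M and F, and their other tissues F and M. These codes may therefore not name the same animal in kidney. A control animal had no white fat library here. Deviations of libraries with the same code correlated at a mean of 0.0456 over 141 pairs, against -0.0151 over 429 pairs of other codes. Both means were small and cannot show that a given code names the same animal in each tissue. The replicate block applies to the comparisons between tissues.

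Named genes were the 10, up to 4 genes of each list with the smallest p in TLS against control in white fat, the 12 genes most like the 10 by raw and by centred correlation, and a fixed set looked up in every case, such as Ucp1, Pvalb and Myh7. Not every gene this rule names is reported here. Genes outside this rule (Myf6, Myod1, Myog, Pax7, Serpina3k and some genes called lower in M) were named after their values were seen. The 10 genes and the lists were chosen with earlier results of these data known. Coordinates are from GENCODE vM21 (GRCm38), which holds all 10 symbols, and promoter windows from RefSeq (GRCm38.p6), which matched 8 of 10.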

Additional observations from a re-analysis of the deposited data

Results flagged for a closer look

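Within the groups of 7 or 8 white fat libraries, 33 combinations of gene or mean of the 10 genes and group were looked at for a library far from the rest. Of these 8 had one, where chance gives about 1 in 20 (0.05) for a single combination. The genes were read in the same libraries, so the combinations are not separate cases and the 8 cannot be set against that rate. In 6 of the 8 it was control animal A123, on the log2 CPM scale: Myh1 at 1.87, Myh4 at 4.10, Tnnt3 at 3.57, Mylpf at 2.01, Atp2a1 at 3.67 and the mean of the 10 genes at 3.23. In the other 2 it was T0 animal T0_4, with Myh4 at 0.0469 and the mean of the 10 genes at 1.16. For Myh4 the other 7 T0 libraries were at 0, so any count above 0 in T0_4 would have been flagged. The TLS group gave none, but the rule measures the gap to the nearest library. For the mean of the 10 genes B51B stood at 9.19 with B4B9 next at 6.75 and B23B at 3.32. The rule can miss high libraries that lie beside each other, so this result does not show that TLS had no library far from the rest.

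The TLS effect on Mylpf (5.02 on the log2 scale) and on Tnni2 (3.85) differed between white fat and the mean of the other tissues by an edgeR interaction term. Neither was called with the animal as a replicate block, or without the white fat libraries of B51B and B4B9.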

How the results depend on the processing

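In TLS against control in white fat, DESeq2 called 8 of the 9 genes it tested and every other alternative run 0, with 176 genes in all for DESeq2 and 1 for edgeR. In TLS against T0 the 1 call became 0 with no low-count filter, a filter of 1 CPM in 8 libraries, voom, 2 groups alone, no F or M term, F alone, M alone, without B51B and B4B9, and without B51B, B4B9, B23B and A123, became 7 with DESeq2, and was 0 to 1 when single libraries were left out. In M against F the 5 calls became 1 with the 1 CPM filter, 0 with voom, 1 without B51B and B4B9, 0 without the 4 libraries and 2 to 6 with single libraries left out. DESeq2 called 2 in the M minus F difference of the TLS effect and 1 in kidney TLS against control, where voom also called 1. The 2 calls of the tissue difference became 1 with no filter and 0 with voom, with the animal as a replicate block, with the block without kidney T0_4 and T0_5, and without the white fat libraries of B51B and B4B9. The block changed the number of genes higher in white fat than in cortex from 7 to 6 and left 8 and 9 for kidney and liver.

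Direction reversed in 16 values, on the log2 scale. In TLS against control these were Tnnt3 in M alone (-0.047) and without the 4 libraries (-0.19), and Tnni2 without the 4 libraries (-0.23). In TLS against T0, M alone gave Acta1 -0.10, Myh1 -0.25 and Mylpf -0.23, and leaving out the 4 libraries gave Myh1 -0.27 and Tnnt3 -0.14. In M against F, Tnnc2 was 0.28 without B51B and B4B9 and 1.019 without the 4 libraries, and Tnni2 was 0.16 without the 4 libraries. Kidney Mylpf in M against F was -0.033 with 2 groups alone. Without the white fat libraries of B51B and B4B9 the tissue difference was -0.047 for Acta1, -0.62 for Tnnt3, -0.97 for Tnni2 and -0.067 for Tnnc2. Except where fewer samples or fewer genes tested enter by construction, the cause was not tested. Among single genes, 687 alternative values kept direction and call, 41 lost a call and 18 gained one. The floor of 0.103 to 0.189 CPM limits what can be said of Myh4, with 3 counts or fewer in 15 of 23 libraries, Myh2 (12) and Ckm (9), and genes at 0 there were not detectable at this depth.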

Other observations

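The developmental sarcomere genes summed to 18.7 CPM in B51B and 8.11 CPM in B4B9, inside the 5.42 to 25.4 CPM of all 23 white fat libraries. Among them the myosins Myh8 and Myh3, which mark fetal and regenerating fibres, had few counts. Myh8 was at 6.49 CPM in B51B, 1.39 CPM in B4B9, 0.241 CPM in B23B and 0.140 CPM in A123, and Myh3 had 17, 2, 5 and 0 counts. Myh8 shares near-identical windows with Myh1, Myh2 and Myh4. Sln, the small inhibitor of the muscle calcium pumps, had 86, 31, 2 and 5 counts. Without B51B and B4B9, Actn3 was higher in M than in F white fat (1.73 ± 0.339 on the log2 scale, edgeR adjusted p 0.00185), while over all 23 libraries it was 0.38 ± 0.771 (edgeR adjusted p 0.808). The library with the lowest sum of the 10 genes, A5DA, had the highest sum of 9 lymph node genes, 146 CPM against a median of 10.95 CPM over the 23 libraries, and nearly the lowest sum of white adipocyte genes.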
